A study of Bos taurus with 20 samples.

Results

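Bovine satellite cells were compared after 48 h and after 96 h in differentiation medium with 2% fetal bovine serum, to describe the net change in gene expression over the last 2 days of a 4-day time course. The comparison used 8 of the 20 libraries of the series, 4 at 48 h and 4 at 96 h, chosen by their labelled sampling time alone. The 4 libraries at 72 h, taken from the day between, showed where each gene stood on the way. All groups came from satellite cells of the Belgian Blue breed that had been grown on collagen in 20% serum before an abrupt change of medium. The libraries were made from polyA RNA. Replicates A and B carried the label batch 1 and replicates C and D the label batch 2 at every time point. The series text calls the replicates biological but does not say whether they came from separate animals, so the p-values below measure the spread between these cultures.

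Satellite cells are the resident stem cells of skeletal muscle. When serum is withdrawn in culture, their progeny leave the cell cycle, align and fuse into multinucleated myotubes. The myotubes then build sarcomeres, the contractile units, and take up the metabolism and calcium handling of a muscle fibre. The count table names its genes by Ensembl cattle identifiers, and the gene table used here paired 0 of them with a symbol. Gene functions, gene lists and the marker genes of satellite cells, myotubes and other cell types were therefore not analysed here, and the labelled cell type was not checked. In a bulk culture a lower level in every cell and a smaller number of expressing cells cannot be told apart.

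Each library at 48 h held between 21346320 and 39818794 counts in all. The totals ran from 23754399 to 37424585 at 72 h and from 21100797 to 35140615 at 96 h. After a filter on low counts, 14636 genes were tested. Levels are given as CPM, counts scaled to a common library size,, with the sizes adjusted by TMM, a method that sets the bulk of genes equal between libraries. The scaling factors lay between 0.948 and 0.976 at 48 h, between 0.882 and 0.914 at 72 h and between 0.837 and 0.861 at 96 h. A change is a log2 fold change, and a gene was called where its adjusted p in edgeR's quasi-likelihood test was under 0.05.

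ENSBTAG00000011392 rose the most among called genes that averaged 10 CPM or more and whose libraries did not overlap between both times. It stood at 1.91, 1.71, 2.27 and 2.80 CPM in replicates A to D at 48 h and at 237, 185, 314 and 195 CPM at 96 h. All 4 libraries at 96 h lay far above all 4 at 48 h. The log2 change was 6.76 (standard error 0.36), a 108-fold rise (edgeR adjusted p = 2.00e-10). The gene ranked 1 of 14636 by its rise. At 72 h it had reached 54.8, 20.0, 95.4 and 86.0 CPM. Both batch 2 libraries were higher than both batch 1 libraries at that time, and the lowest 72 h library was still above every 48 h library. The mean log2 change by 72 h was 70.9% of the net change. The third day brought a log2 change of 4.79 (edgeR adjusted p = 2.54e-08) and the fourth day one of 1.97 (edgeR adjusted p = 2.32e-05). Before 48 h the gene was close to undetected, and no library exceeded 0.214 CPM at 0 h or 0.0340 CPM at 24 h.

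ENSBTAG00000043953 fell the most under the same rule. Its levels at 48 h were 24.1, 21.0, 19.4 and 17.5 CPM, and at 96 h they were 0.628, 0.140, 0.0567 and 0.507 CPM. The rule required groups without overlap and a call, for this gene and for the largest rise. The 96 h values rest on 19, 3, 1 and 15 counts and differ widely among themselves. The log2 change was -5.74 with a 95% interval from -6.52 to -4.96 (edgeR adjusted p = 9.00e-10). At 72 h the gene was at 5.63, 5.69, 4.49 and 4.88 CPM, between both ends in every library. By then 34.5% of the log2 change was complete, so on that scale more of it fell into the last day. In CPM the larger drop came on the third day, from a mean of 20.5 to 5.17, and then to 0.333 at 96 h. Before the fall the gene had climbed, from a mean CPM of 0.0763 ± 0.104 (0 h) to 9.37 ± 3.41 (24 h) and 20.5 ± 2.81 (48 h; SD, n = 4 each).

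A further 2 genes were picked for a 72 h level that went past the 96 h level in the direction of the net change. The 72 h values chose them, so their excursion is given as a description. ENSBTAG00000001865 stood at 6.18, 6.20, 8.30 and 8.70 CPM at 48 h, at 23.4, 18.8, 32.6 and 30.0 CPM at 72 h and at 19.6, 18.9, 20.6 and 20.8 CPM at 96 h. Its net rise was 1.46 on the log2 scale (standard error 0.10; edgeR adjusted p = 8.87e-11). The 72 h level exceeded the 96 h level clearly in batch 2, while in batch 1 the libraries of both times overlapped. The gene lost its call at 72 h in batch 1 alone, without the batch term, and without any one of replicates A, C and D at 72 h or C and D at 96 h. ENSBTAG00000047330 fell from 14.1, 16.9, 14.6 and 15.6 CPM at 48 h to 4.10, 4.68, 5.25 and 4.49 CPM at 72 h and stood at 6.45, 7.83, 8.56 and 6.53 CPM at 96 h. No library at 72 h overlapped with either end, although the call at 72 h was lost in batch 2 alone (edgeR adjusted p = 0.145). The net change was -1.08 (standard error 0.10; edgeR adjusted p = 1.03e-08), and the partial return on the last day was 0.66 on the log2 scale. This gene had been more abundant before, with a mean CPM of 39.4 ± 2.43 (0 h) and 52.3 ± 7.59 (24 h; SD, n = 4 each).

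**Figure D1:**
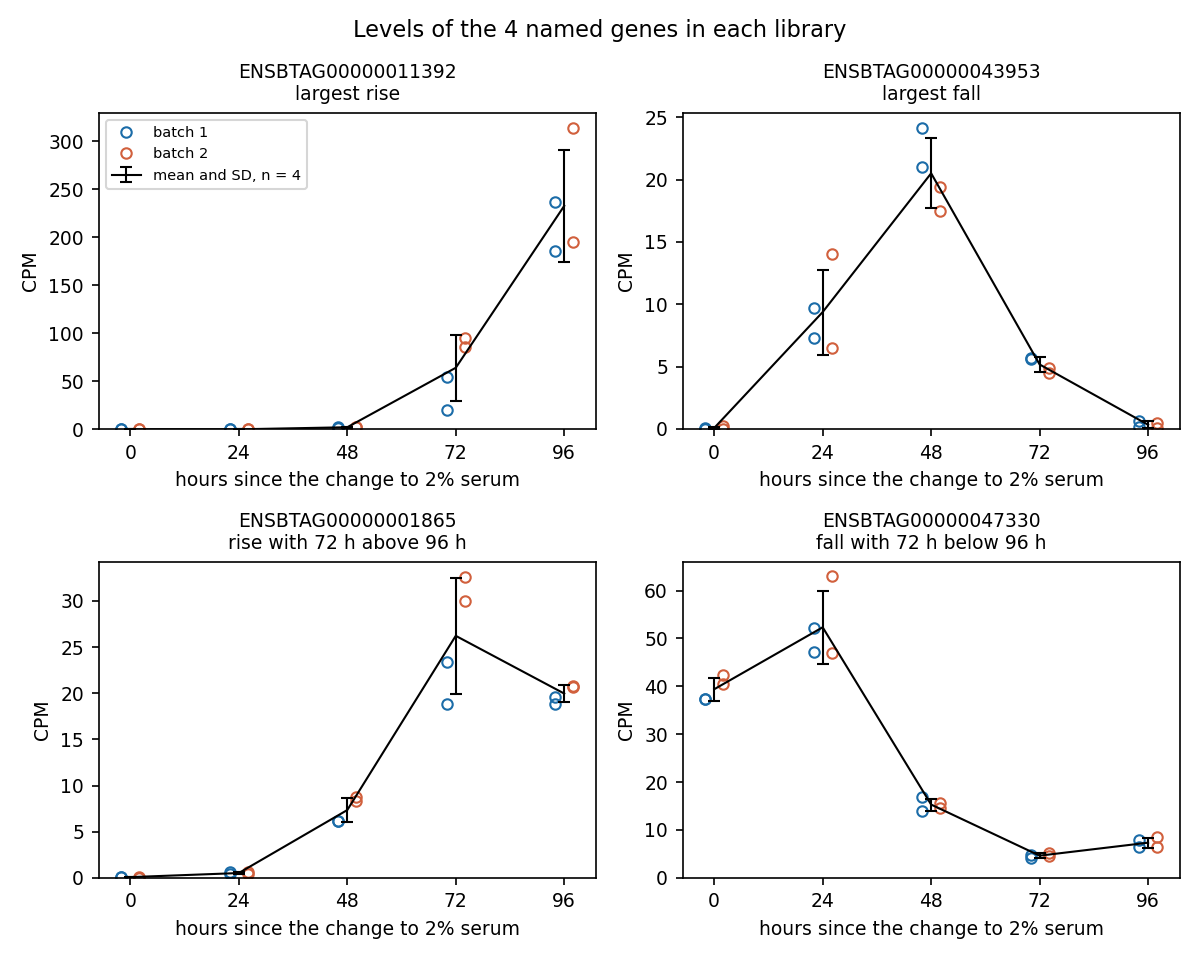
CPM (vertical, linear axes that differ between panels) of the 4 named genes against hours since the change to 2% serum, with 1 open circle per library coloured by batch and black lines for the mean and SD of 4 libraries. ENSBTAG00000011392 climbs mainly between 48 h and 96 h, ENSBTAG00000043953 peaks at 48 h, and both lower panels show a 72 h level past the 96 h level.

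Across all genes tested, 7277 were called between 48 h and 96 h (49.7%). Of these, 3698 rose (25.3% of genes tested) and 3579 fell (24.5%). Most of the called changes were small. The median log2 change was 0.43 in genes that rose and -0.46 in those that fell, and 50.5% of all genes tested changed by less than 1.2-fold. Of the genes that rose, 1259 passed 1.5-fold, 520 passed 2-fold and 136 passed 4-fold. Among genes that fell, the counts were 1374, 553 and 87. A test against a 2-fold minimum, a stricter question, called 240 higher and 133 lower genes (2.55% in all). The 4 libraries at 96 h did not overlap with the 4 at 48 h for 6052 genes (41.4%), 3083 of them higher (21.1%) and 2969 lower (20.3%).

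How many genes fell on each side depended on the scaling. With library sizes alone the median of all genes moved to -0.19 on the log2 scale, and the calls became 2071 higher and 6249 lower. The counts of at least 2-fold changes then were 374 higher and 874 lower.

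Not all genes left uncalled were poorly measured. For 2509 of the 7359 genes that did not pass (34.1%), the 95% interval of the net change lay within 1.2-fold in either direction, and for 5245 (71.3%) it lay within 1.5-fold. For the rest the interval reached 1.5-fold or more, or could not be given, so a change of that size may have been missed. Of the whole table, 0 genes went from no count in all 4 libraries at 48 h to at least 10 counts in each at 96 h, and 0 genes went the other way. The genes detected in all 4 libraries numbered 15943 at 48 h and 15713 at 96 h. Detection also depends on depth, which averaged 30204900 counts at 48 h and 28917500 at 96 h. The part of depth in this difference was not tested.

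The share of called genes grew with abundance. It was 28.3% of the 1768 genes that averaged under 1 CPM over all 20 libraries, 43.3% of 3603 genes from 1 to 10 CPM, 53.9% of 7066 genes from 10 to 100 CPM, 63.6% of 2110 genes from 100 to 1000 CPM and 75.3% of 89 genes at 1000 CPM or more. The median standard error of the log2 change was 0.35 in the lowest class, 0.06 from 100 to 1000 CPM and 0.07 at 1000 CPM or more. Precision thus grew with abundance up to 1000 CPM and not beyond. The median absolute log2 change in the same 3 classes was 0.53, 0.22 and 0.36. The part of precision in the share of called genes was not tested. Called changes of at least 2-fold showed a different order. They made up 19.4% of genes under 1 CPM, 10.3% from 1 to 10 CPM, 3.91% from 10 to 100 CPM, 3.41% from 100 to 1000 CPM and 11.2% at 1000 CPM or more. In that most abundant class, 10 genes rose at least 2-fold, while each of the 23 that fell did so by less.

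The most abundant genes of each library took a larger share of its counts at 96 h than at 48 h. The 100 most abundant genes of each library held 24.2 ± 0.283% (48 h), 27.2 ± 0.451% (72 h) and 30.4 ± 0.265% (96 h) of its counts (SD, n = 4 each). No library at 96 h overlapped with any 48 h library (exact permutation test, two-sided, p = 0.0286, the smallest that 4 against 4 libraries allow). The permutations ignored batch. The leading 100 genes by mean CPM at 48 h and at 96 h had 80 in common, and the leading 1000 had 882.

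The net change was compared between both batches, which share no library. The log2 changes in both batches had a Pearson correlation of 0.802 and a Spearman correlation of 0.714 across the 14636 genes; genes do not count as independent replicates. Genes called and at least 2-fold changed in one batch were then measured in the other. Of 578 genes higher in batch 1, 561 (97.1%) were also higher in batch 2, with a median log2 change of 1.22, and of 640 lower genes 620 (96.9%) were lower, with a median of -0.97. Of 496 genes higher in batch 2, 495 (99.8%) were higher in batch 1, with a median of 1.36, and of 423 lower genes 410 (96.9%) were lower, with a median of -1.18.

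**Figure D2:**
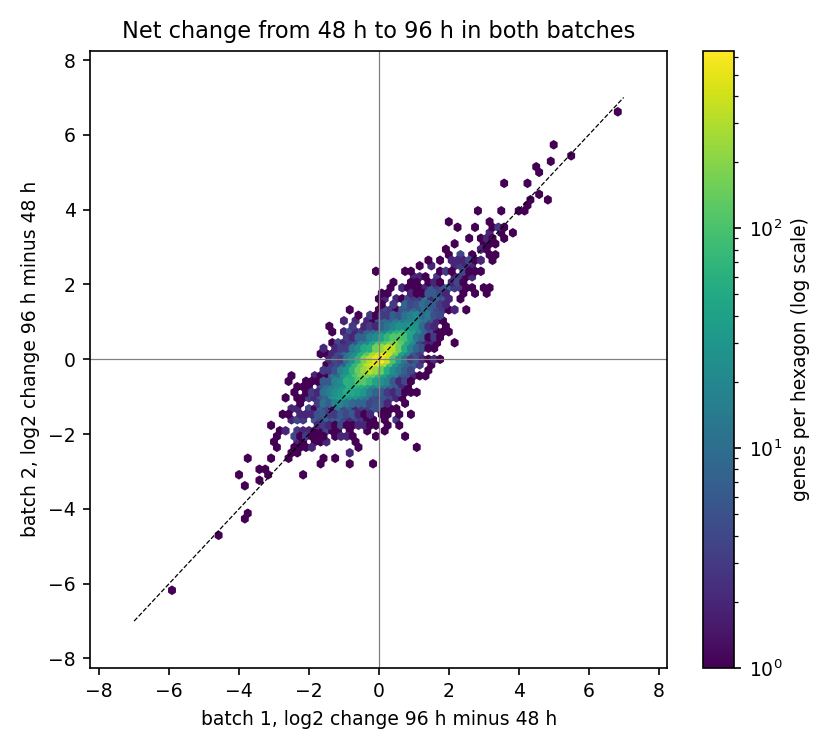
Log2 change from 48 h to 96 h in batch 1 (horizontal) and batch 2 (vertical) for 14636 genes, with colour for the number of genes per hexagon on a log scale and a dashed line of equal change. Most genes lie near 0 in both batches, and those with large changes follow the dashed line in both directions.

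A test of the difference itself called 1 gene (0.00683%), ENSBTAG00000021272, which was chosen here after its values were seen. In batch 1 it went from 48.4 and 48.0 CPM at 48 h to 39.4 and 37.8 CPM at 96 h, and in batch 2 from 38.0 and 35.9 CPM to 48.3 and 54.8 CPM. The net change in batch 2 exceeded that in batch 1 by 0.80 on the log2 scale (edgeR interaction of batch and time, adjusted p = 0.0155). At 72 h it was above both ends in all 4 libraries, at 99.1, 106, 78.0 and 76.0 CPM. At an unadjusted p under 0.05, 1901 genes (13.0%) passed this test, more than the threshold alone would give without any difference. The single call therefore does not show that all other genes changed alike in both batches. DESeq2 called 1 gene, and edgeR without the filter on low counts called 621.

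The genes that changed at least 2-fold late had different histories in the 2 directions. Levels are again those in the batch that did not choose the genes. Late risers had been rising since the start. At 0, 24, 48, 72 and 96 h their median level in batch 2 was -0.27, 0.51, 1.64, 2.43 and 3.13 log2 CPM, and in batch 1 it was -0.97, 0.15, 1.43, 2.19 and 2.92. At 0 h, 21.3% of them in batch 2 and 16.9% in batch 1 were above their 48 h level.

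Late fallers had a flat or domed course before the fall. At the same times their median level in batch 2 was 1.74, 2.47, 2.44, 1.72 and 1.25 log2 CPM, and in batch 1 it was 1.68, 2.40, 2.29, 1.61 and 1.09. The group was mixed: at 0 h, 44.4% of these genes in batch 2 and 44.2% in batch 1 were above their 48 h level. For 38.9% in batch 2 and 37.6% in batch 1 the 0 h level was below even the 96 h level.

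**Figure D3:**
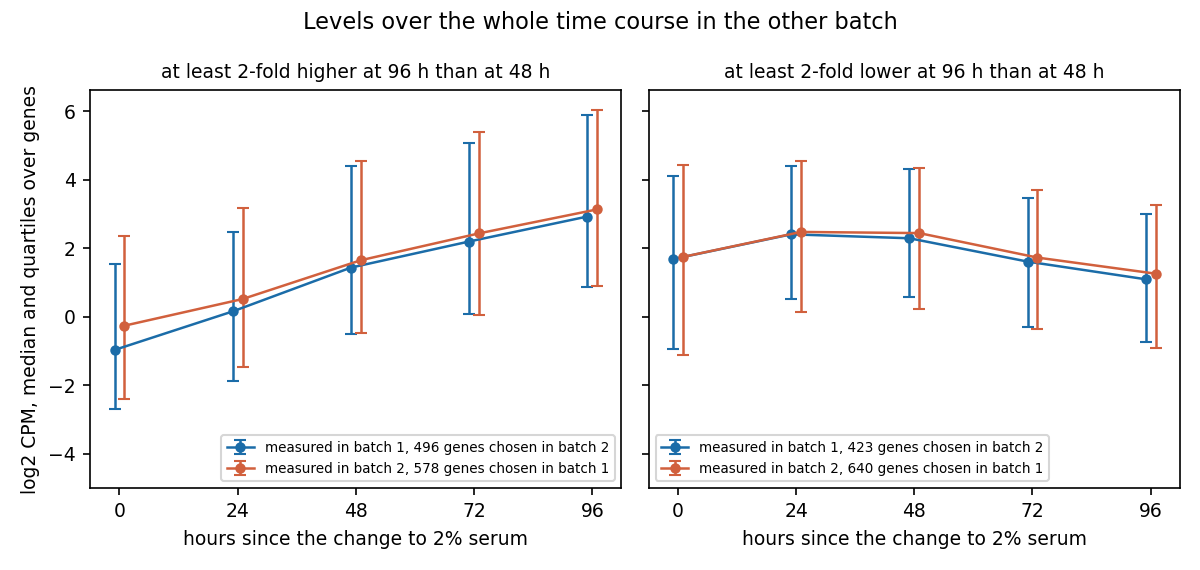
Median log2 CPM over genes (points, with bars for the quartiles) against hours since the change to 2% serum, for genes at least 2-fold higher (left) or lower (right) at 96 h than at 48 h; one batch chose the genes and the other gave the levels. The medians on the left climb at every step, from -0.27 to 3.13 in batch 2, and those on the right are highest at 24 h.

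These genes held a growing and a shrinking part of each library. The 578 risers chosen in batch 1 took 4.91 and 4.61% of counts in replicates C and D at 48 h, 7.55 and 7.12% at 72 h and 10.6 and 9.73% at 96 h. The 496 risers chosen in batch 2 took 3.99 and 3.90% in replicates A and B at 48 h, 6.91 and 6.03% at 72 h and 9.30 and 8.87% at 96 h. The libraries of the 3 times did not overlap in either batch. The 640 fallers chosen in batch 1 went from 1.47 and 1.57% at 48 h to 0.609 and 0.708% at 96 h in replicates C and D. The 423 chosen in batch 2 went from 1.07 and 1.09% to 0.397 and 0.393% in replicates A and B.

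Genes that changed on the first day went both ways over the last 2 days. The comparison of 24 h with 0 h, which shares no library with that of 96 h with 48 h, called 9683 genes (66.2%), 4636 higher (31.7%) and 5047 lower (34.5%). Of the genes higher at 24 h, 29.4% rose and 27.8% fell between 48 h and 96 h, against 25.3% and 24.5% of all genes tested. Of those lower at 24 h, 24.2% rose and 27.9% fell late. Of the 787 genes that had fallen at least 2-fold on the first day, 130 (16.5%) rose and 225 (28.6%) fell late. Of 1851 genes that had risen at least 2-fold, 592 (32.0%) rose and 551 (29.8%) fell. These shares are descriptions, and a difference between them was not tested.

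For genes with at least a 2-fold net change, the 72 h level usually lay between both ends, and the median position was a little past the middle. Choosing genes whose ends lie far apart itself makes a level between them likelier. Of all genes tested, 28.4% were above and 31.1% below both ends at 72 h in batch 2. In batch 1 these shares were 25.7% and 26.6%. The position of 72 h was taken on the log2 scale, with 0% at the 48 h level and 100% at the 96 h level. It was computed in the batch that did not choose the genes, for those that changed there by at least 1.2-fold in the same direction. The median position of risers was 55.4% in batch 2 (547 genes) and 55.8% in batch 1 (482 genes). That of fallers was 59.1% in batch 2 (598 genes) and 60.1% in batch 1 (396 genes). Single genes scattered widely, with quartiles of 26.1% and 78.4% for risers and of 35.7% and 83.8% for fallers in batch 2. Each position rests on 2 libraries per time, and the part of measurement error in this scatter was not tested.

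Among risers, 76.4% in batch 2 and 79.7% in batch 1 had a 72 h level between both ends. It was beyond the 96 h end for 9.32% and 12.2% and on the far side of the 48 h end for 14.3% and 8.09%. Among fallers, 77.3% in both batches lay between both ends. It was beyond the 96 h end for 15.1% and 18.4% and on the far side of the 48 h end for 7.69% and 4.29%. These shares were not tested against those of the risers. With changes of at least 4-fold measured in batch 2, the 96 h end was passed by 13.1% of 107 fallers and 8.70% of 138 risers. Measured in batch 1, it was passed by 6.56% of 61 fallers and 9.22% of 141 risers, so the batches differed in order. With changes of at least 4-fold in the choosing batch, the mean of both batches' medians was 59.5% for risers and 47.5% for fallers, so the order of the 2 directions turned with the size of the change.

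**Figure D4:**
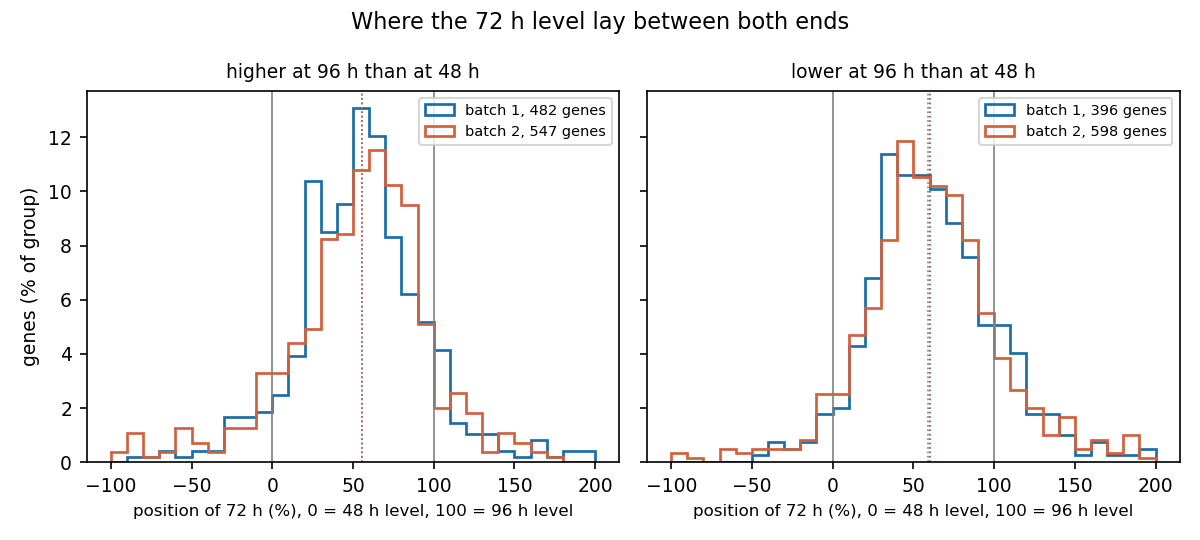
Distribution of the 72 h position (horizontal, in percent, with grey lines at the 48 h level and the 96 h level) among genes at least 2-fold higher (left) or lower (right) at 96 h, with positions from the batch that did not choose the genes, as a percentage of each group (vertical); dotted lines mark the medians. The medians lie between 55.4% and 60.1%, and 65 of 2023 values fall outside the plotted range.

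Single libraries showed the same course. In batch 2 the median log2 change of the risers from the 48 h mean of that batch was 0.68 and 0.65 at 72 h and 1.28 and 1.17 at 96 h in replicates C and D. In batch 1 it was 0.88 and 0.66 at 72 h and 1.38 and 1.36 at 96 h in replicates A and B. For the fallers it was -0.61 and -0.55, then -1.06 and -0.92 in replicates C and D, and -0.79 and -0.75, then -1.15 and -1.21 in replicates A and B. At both late times of batch 2, replicate C was farther from the 48 h mean than replicate D. These replicates already differed in the same direction at 48 h. Their values there were 0.036 and -0.036 for risers and -0.049 and 0.049 for fallers in replicates C and D.

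A test of each gene asked whether its 72 h level differed from the midpoint of its 48 h and 96 h levels on the log2 scale. That is, it asked whether the changes of both days, taken with their sign, were unequal. A gene that rose and then fell back by the same amount could thus be called too. It called 4745 genes (32.4%), 2379 above the midpoint (16.3%) and 2366 below (16.2%). Of the 3698 genes that rose from 48 h to 96 h, 790 (21.4%) were past the midpoint toward 96 h, 621 (16.8%) lagged toward 48 h and 2287 (61.8%) did not pass. Of the 3579 that fell, 744 (20.8%) were past the midpoint, 591 (16.5%) lagged and 2244 (62.7%) did not pass. Of the 7359 genes without a called net change, 998 (13.6%) were above the midpoint and 1001 (13.6%) below.

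This lead of early over late change did not hold within both batches. In batch 1 alone, 336 risers were past the midpoint and 567 lagged, with 333 and 527 for the fallers. In batch 2 alone the counts were 377 and 147 for risers and 311 and 148 for fallers. Without replicate D at 96 h the pooled order also turned, with 713 and 779 risers and 657 and 740 fallers. A test of the difference between batches, chosen after the data were examined, called 2 genes, ENSBTAG00000009703 and ENSBTAG00000040053, with 1008 genes (6.89%) at an unadjusted p under 0.05. The first stood at 125 and 117 CPM at 72 h in batch 2, below 182 and 194 CPM at 48 h and 228 and 251 CPM at 96 h. In batch 1 it was at 134 and 129 CPM at 48 h, 138 and 143 CPM at 72 h and 143 and 143 CPM at 96 h. ENSBTAG00000040053 dipped in the same libraries, with 24.5 and 22.8 CPM at 72 h against 36.1 and 38.7 CPM at 48 h and 50.3 and 53.9 CPM at 96 h in batch 2, while its batch 1 libraries lay between 26.0 and 30.8 CPM at all 3 times. Neither gene was called for its net change (edgeR adjusted p = 0.190 and 0.0712).

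A smaller group of genes left the range of both ends at 72 h. The call required 72 h to differ from 48 h and from 96 h in opposite directions of change, and the weaker of these 2 tests set the p-value, adjusted across the 14636 genes. It found 944 genes (6.45%), of which 478 were high at 72 h (3.27%) and 466 low (3.18%). Most had no called net change: 334 of the highs and 304 of the lows, against 7359 of the 14636 genes tested. Requiring steps in opposite directions itself makes a small net change likelier. Of the highs, 72 were net higher and 72 net lower, and of the lows 88 were net higher and 74 net lower. Together, 638 genes were called for their 72 h level and not for their net change.

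Lows were deeper than highs were tall. The excursion, taken as the smaller of both steps, had a median of 0.29 on the log2 scale for highs (1.22-fold) and 0.50 for lows (1.41-fold). At least 1.5-fold excursions numbered 59 highs and 190 lows, and at least 2-fold ones 14 and 60. The largest high was 3.20-fold and the largest low 6.51-fold. Lows were also less abundant, with a median of 17.1 CPM over the 12 libraries against 49.0 CPM for highs and 18.4 CPM for all genes tested, and the part of abundance in this difference was not tested. Among genes of at least 10 CPM the excursions of at least 1.5-fold were 24 highs and 78 lows. Under the 4 scalings tried the counts over all genes were 51 to 59 highs and 180 to 191 lows. With single batches they were 39 and 138 in batch 1 and 39 and 58 in batch 2, so the excess of lows was larger in batch 1. Excursions of at least 2-fold numbered 10 highs and 51 lows in batch 1 alone, but 11 and 14 in batch 2 alone.

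Excursions called in one batch recurred in the other. Of 139 highs called in batch 1, 132 (95.0%) had a 72 h level above both ends in batch 2, against 28.4% of all genes tested. Of 227 lows called in batch 1, 218 (96.0%) were below both ends in batch 2, against 31.1% of all genes. Of 89 highs and 101 lows called in batch 2, 87 (97.8%) and 97 (96.0%) recurred in batch 1, against 25.7% and 26.6%. The numbers of highs and lows both depended on single libraries. Without replicate C at 72 h they were 297 and 342, and without replicate D at 72 h 312 and 321. Without replicate A at 96 h they were 330 and 337, and without replicate D at 96 h 496 and 525.

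**Figure D5:**
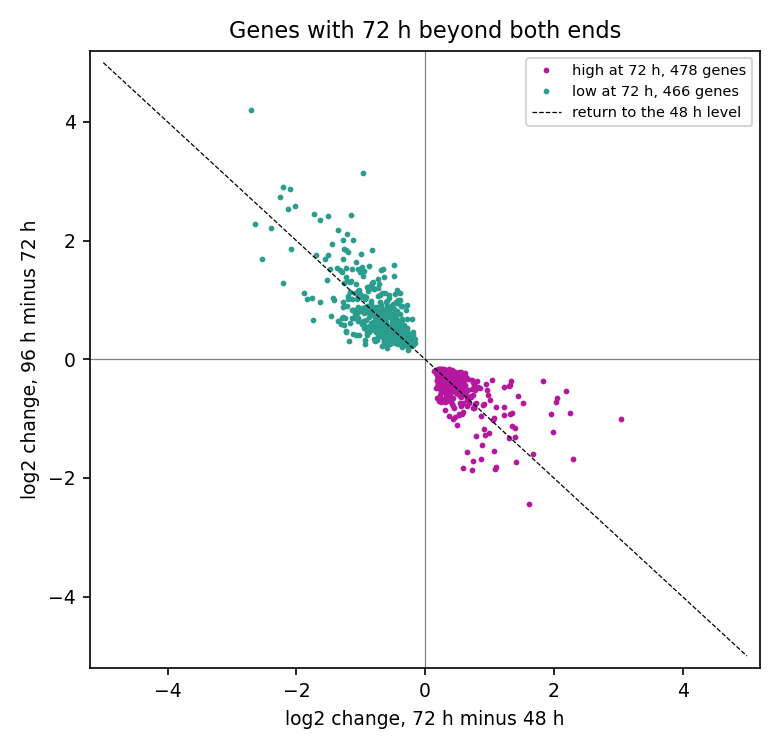
Log2 change on the third day (horizontal, 72 h minus 48 h) and on the fourth day (vertical, 96 h minus 72 h) for the 478 genes high and the 466 genes low at 72 h, 1 point per gene; the dashed line marks a full return to the 48 h level. Lows at the upper left reach farther from the centre than highs at the lower right.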

How the data were processed

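Satellite cell libraries came from a stranded mRNA kit with reads of 75 bp, per the labels' protocols. The authors deposited a table of raw counts of reads for each gene. STAR 2.7, featureCounts and build bosTau9 are named per the submitters' processing notes. For their parameters, strand setting and annotation the sources used here give nothing. Reads of overlapping or near-identical genes may thus be shared. The table held 27607 genes and 0 lines without a gene.

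The counts were modelled with edgeR 4.0.16 in R 4.3.3: filterByExpr (minimum count 10, minimum total 15), TMM, and a robust quasi-likelihood model of time and batch over all 20 libraries, with Benjamini-Hochberg adjustment over 14636 genes. Log2 CPM used a prior count of 2. Standard errors were derived from the fold change and F. DESeq2 1.42.0 was an alternative. Members, lists and tests were chosen with earlier results of these data known. With no symbols, 4 genes were named by rule: the largest rise and fall among called genes with at least 10 CPM and no overlap, and the largest of each whose 72 h level was called beyond 96 h. Intervals cover only the spread between these libraries.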

Additional observations from a re-analysis of the deposited data

Results flagged for a closer look

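Among 24 sets of 4 replicate values checked with Dixon's test, 4 held a library far from the others, where chance gives about 1 in 20. All 4 were replicate C, at 48 h and at 96 h. The scaling factor and the top 100 share of a library both reflect how its counts spread over genes. The sets were therefore not independent, and their number cannot be set against chance as if they were. Its TMM scaling factor was 0.948 at 48 h, against 0.972 to 0.976 in the others, and 0.837 at 96 h, against 0.858 to 0.861. Its 100 most abundant genes held 24.6% of counts at 48 h, against 24.0 to 24.1%, and 30.8% at 96 h, against 30.2 to 30.3%. Without replicate C at 48 h the net comparison called 7105 genes, and without it at 96 h 6687.

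In 3 genes the effect differed between batches by an edgeR test of the difference. The net change of ENSBTAG00000021272 was 0.80 higher on the log2 scale in batch 2 (adjusted p = 0.0155). The 72 h level against the midpoint was lower in batch 2 by a difference of -0.84 for ENSBTAG00000009703 and -0.89 for ENSBTAG00000040053 (adjusted p = 0.0312 for both).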

How the results depend on the processing

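Each alternative was planned except the test of the midpoint contrast between batches and the splits by direction and size under each alternative. Counts of called genes stayed within 1.5 times the reported one in 22 of 24 alternatives for 96 h against 48 h and in 20 of 22 each for the midpoint and for 72 h beyond both ends. Exceptions for 96 h against 48 h were 373 genes in the test against a 2-fold minimum, a stricter question, and 4294 in batch 2 alone. For the midpoint they were 2997 in batch 1 and 2319 in batch 2, and beyond both ends 366 and 190, all with 2 libraries per time. Without single libraries the counts ranged from 6545 to 7375, from 3801 to 4988 and from 633 to 1021. The test by batch called 621 genes without the low-count filter and 2 with both times alone, and the cause was not tested. Median positions moved by more than the SD between batches, to 56.7% (RLE), 57.3% (library sizes alone), 55.0% (no filter), 56.1% (any size) and 59.5% (at least 4-fold) for risers and to 58.7% (RLE), 61.9% (library sizes alone) and 47.5% (at least 4-fold) for fallers. The 4 named genes kept the direction and call of their net change in 23 of 23 alternatives each, an outcome that their choice nearly fixed. No pairing of libraries by letter was assumed. With the letter as a replicate block in place of batch, 7154 genes were called for 96 h against 48 h, 4570 for the midpoint and 864 beyond both ends. Same-letter deviations had correlations from -0.15 to 0.53 (median 0.21), 8 of 12 pairs were over 0.1, and the closest library at another time had the same letter for 7 of 12.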
